A study of Mus musculus with 12 samples.

Results

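The genes examined were 43 that encode the extracellular matrix of mouse embryonic stem cells (ESCs) and the receptors that bind it: laminin and collagen chains, other matrix proteins, integrin chains and a few further matrix receptors. They were taken by symbol from the deposited expression table, which held 50978 genes, and all 43 had a row. RNA had been sequenced from E14 ESCs grown in medium with 15% serum and leukaemia inhibitory factor (LIF), on gelatin without a feeder layer. Parental ESCs were compared with ESC + H/F-PRAMEL7 WT and with ESC + H/F-PRAMEL7 ΔN, called the WT line and the ΔN line here, with 2 libraries for each of the 3 lines. Both derived lines carried an HA/FLAG-tagged *Pramel7* sequence inserted at *Rosa26* under the CAG promoter, a strong promoter active in most cells, and came from single-cell clones, so that clone and transgene cannot be told apart. The ΔN protein lacks its N-terminus, which binds the ubiquitin ligase scaffold CUL2; the labels give a deletion of 50 amino acids, and the text of the study a shorter one. The libraries of a line came from separate dishes, whereas the methods speak of triplicates, and p-values measure the spread between these dishes.

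The extracellular matrix is the protein mesh that cells secrete and stand on. Its sheet-like form, the basement membrane, is built of laminin trimers (an alpha, a beta and a gamma chain) and a network of type IV collagen, tied together by nidogens and by the proteoglycans perlecan and agrin. Integrins, pairs of an alpha and a beta chain in the cell membrane, bind this mesh outside the cell and link it to actin inside. In the early mouse embryo, laminin and its integrin receptors organise the epiblast, and ESCs attach to serum-derived and self-made matrix in the dish.

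Each library held between 18246013 and 19846838 reads on genes. Values are CPM, the reads of a gene scaled to the reads on all genes of its library, recovered from the deposited RPKM values. The *Pramel7* transcript had 5 and 4 reads in the parental libraries, 51.2 and 46.2 CPM in the WT line and 398 and 431 CPM in the ΔN line, so the libraries of the derived lines differed from parental ESCs as labelled, and the transgene transcripts were at unequal levels. No value from the deleted stretch was read, so which derived line carries the deletion rests on the labels. Of 10 pluripotency markers, including *Pou5f1* and *Nanog*, all were expressed in each library, with a summed level of 6285 to 7447 CPM. The libraries of the parental line differed more than those of the derived lines. The median absolute log2 difference between the libraries of a line over the tested matrix and receptor genes was 0.22 in parental ESCs, 0.070 in the WT line and 0.097 in the ΔN line, and 22 of the 33 tested genes were higher in parental library 2.

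Several basement membrane genes and 3 other matrix genes were abundant in these cells, and interstitial collagens other than *Col5a1* were scarce. Per kilobase of exon, the scale on which levels of different genes can be compared, the 10 highest genes in parental ESCs were *Fn1* (162 CPM per kb), *Sparc* (112), *Spp1* (97.4), *Lamc1* (85.2), *Nid2* (83.1), *Dag1* (48.9), *Col18a1* (42.4), *Sdc4* (40.1), *Itgb1* (33.6) and *Nid1* (27.8). Fibronectin, SPARC and osteopontin, the products of the first 3 genes, are secreted glycoproteins of the matrix. The fibrillar collagens of connective tissue lay far lower, with *Col5a1* at 2.38, *Col1a1* at 0.313 and *Col3a1* at 0 CPM per kb, but not every basement membrane gene was higher than *Col5a1*, with *Lamb3* at 1.71. The summed level of the 6 laminin chains was 1197 and 1327 CPM in parental ESCs, against 22.7 and 30.6 CPM for the 7 interstitial collagen chains.

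**Figure D1:**
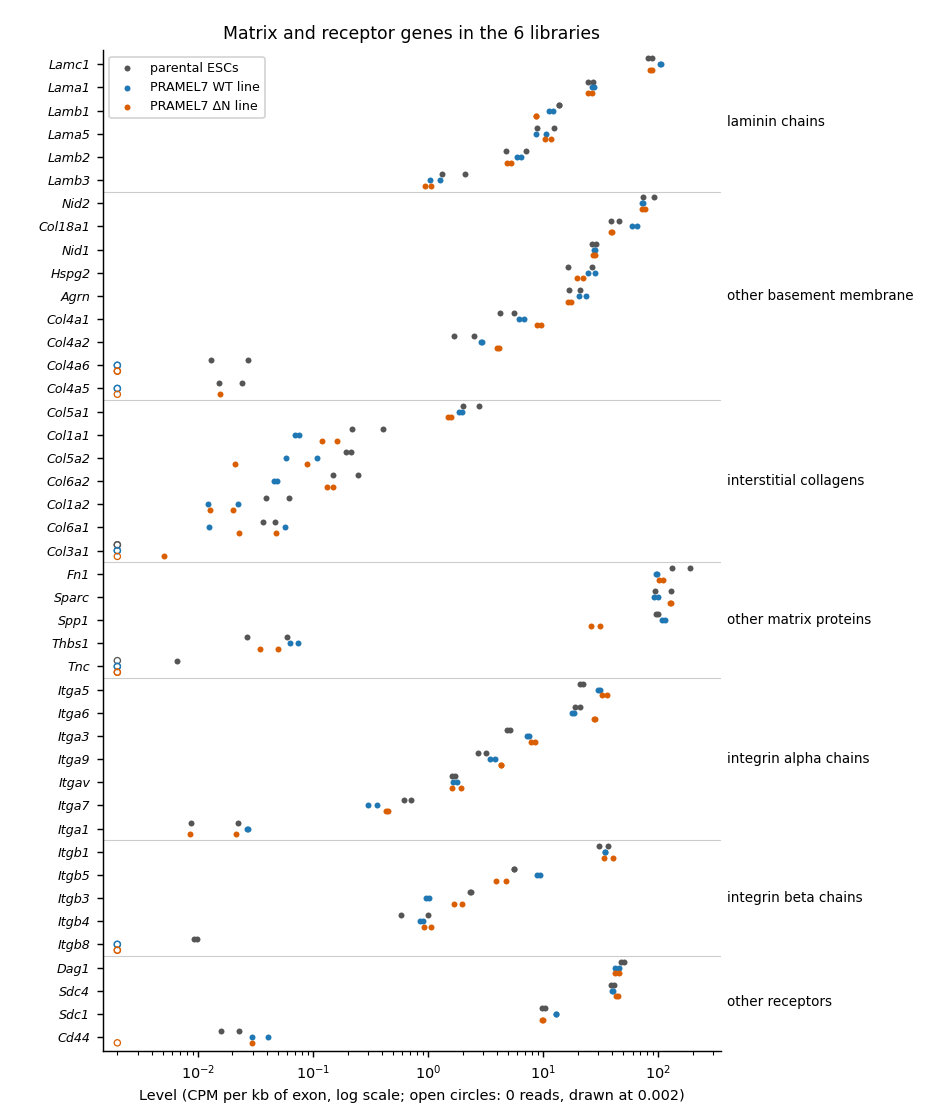
Level of each of the 43 genes in the 6 libraries, in CPM per kilobase of exon on a log axis, with genes grouped by role and 2 points per line. *Lamc1*, *Lama1*, *Nid1*, *Nid2*, *Fn1*, *Sparc* and *Itgb1* lie above 10, interstitial collagens other than *Col5a1* below 1, and open circles mark libraries with 0 reads.

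Too low to test were 10 genes. The filter, more than 1 CPM in at least 2 libraries, kept 33 of the 43 genes. Left out were *Col1a2*, *Col3a1*, *Col6a1*, *Col4a5*, *Col4a6*, *Tnc*, *Thbs1*, *Itga1*, *Itgb8* and *Cd44*. Their totals over the 6 libraries ranged from 1 read for *Col3a1* and for *Tnc* to 41 reads for *Itga1*, and no difference among the lines was tested. *Col1a2*, a chain of type I collagen, had 15 and 9 reads in parental ESCs, 3 and 5 in the WT line and 5 and 3 in the ΔN line. *Col4a6* had 2 and 4 reads and *Itgb8* had 2 and 2 reads in parental ESCs and none in the 4 libraries of the derived lines, where a count of 0 allows up to 3 reads, or 0.151 to 0.165 CPM. *Cd44*, the hyaluronan receptor, had 18 reads in all, and *Tnc*, which encodes tenascin-C, had 1.

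In the WT line against parental ESCs, 1 of the 33 tested genes rose and 5 fell. A gene was counted as changed at a Benjamini-Hochberg adjusted p under 0.05 from limma and an absolute log2 change of CPM + 1 above 0.58. The gene that rose was *Itgb5*, an integrin beta chain, and those that fell were *Itgb3*, its relative, the muscle integrin chain *Itga7*, *Fn1* and the collagens *Col1a1* and *Col6a2*. This is 18.2% of the tested members, against 12.5% of all 12914 genes tested, of which 4.07% rose and 8.41% fell. The count includes *Col1a1*, which passed the filter on low values only with the parental libraries, where it was high, so that its fall was built into its being tested. The median log2 change was 0.04 over the members and -0.08 over all genes. The count higher became 5 without parental library 2 and 0 without WT library 2, and the count lower 2 and 1 without WT library 1 and 2. In bulk RNA, fewer cells of a type and less RNA per cell cannot be told apart.

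In the ΔN line against parental ESCs, 4 genes rose and 5 fell. The paired type IV collagen genes *Col4a1* and *Col4a2* rose, as did the integrin alpha chains *Itga3* and *Itga5*. *Spp1*, *Lamb1*, *Lamb3*, *Fn1* and *Col5a2* fell, and the fall of *Spp1* was the largest change of a member in this comparison. The 9 genes are 27.3% of the tested members, beside 11.3% of all genes, of which 2.87% rose and 8.41% fell. *Col5a2* is among the 5 and was likewise tested only because of the parental libraries. Median changes were -0.04 for the members and -0.06 for all genes. Without ΔN library 1 there were 2 higher and 2 lower, and without ΔN library 2 or parental library 2 there were 3 lower.

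The derived lines were also compared directly, a test of the difference between their changes that does not depend on the parental libraries other than for the estimate of spread. *Spp1*, *Itgb5* and *Col18a1* were higher in the WT line than in the ΔN line, and *Itgb3*, *Itga6* and *Col6a2* were lower. These 6 genes are 18.2% of the tested members, beside 11.3% of all genes, of which 6.63% were higher and 4.72% lower. The count lower became 1 without WT library 1 or 2 or ΔN library 2. The contrasts with parental ESCs share their control libraries, so *Fn1*, the only member that fell in both, rests on the same pair of parental values each time.

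**Figure D2:**
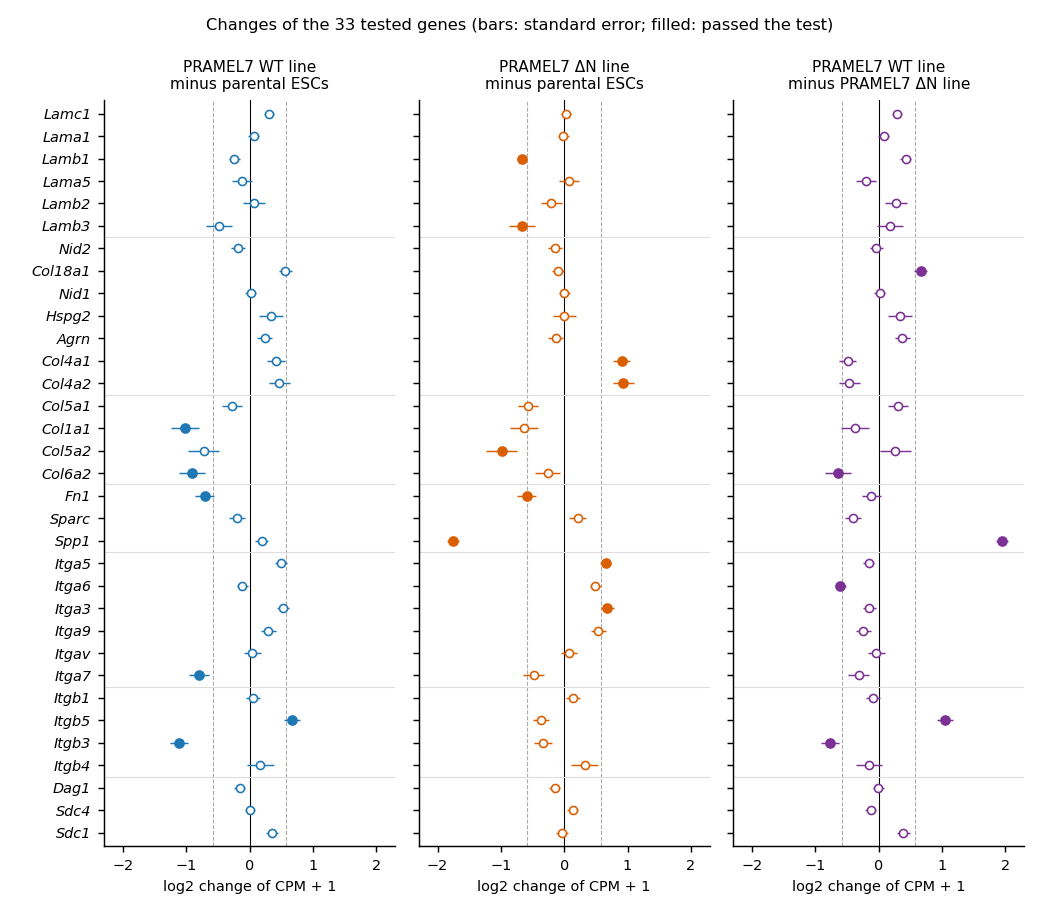
The log2 change of CPM + 1 for the 33 tested genes in the 3 comparisons, in the order of roles used above, with the standard error as a bar and dashed lines at 0.58 on either side of 0. Filled points passed the test: 6 in the left panel, 9 in the middle and 6 in the right, with *Spp1* farthest from 0 in the middle and right panels.

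Among the 6 laminin chains, the beta chains *Lamb1* and *Lamb3* fell in the ΔN line, and no chain passed in the WT line. *Lamb1* (chr12:31265234-31329644 in GRCm38) had 137 and 137 CPM in parental ESCs, 111 and 120.2 in the WT line and 86.2 and 85.9 in the ΔN line. The groups did not overlap, with the WT line between the others. In the ΔN line it fell by 0.67 on the log2 scale (standard error 0.08, adjusted p = 0.000944, limma), and it was higher in the WT line than in the ΔN line by 0.42 (adjusted p = 0.00832, limma), under the limit on size. Relative to the median of the tested genes within 10 Mb the ΔN change was -0.52, below that limit.

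*Lama1* and *Lamc1* encode the alpha and gamma chains that join the beta 1 chain in laminin-111, the laminin of the early embryo. *Lama1* ranged from 238 to 266 CPM over the 6 libraries and the 3 lines overlapped. *Lamc1* had 681 and 729.8 CPM in parental ESCs, 881 and 867 in the WT line and 732 and 702 in the ΔN line. The WT values lay above the rest, by a log2 change of 0.31 from parental ESCs (adjusted p = 0.0234, limma), too small to be counted. Per kilobase of exon, *Lamb1* stood at 0.559 and 0.511 of the *Lama1* level in parental ESCs, at 0.421 and 0.44 in the WT line and at 0.326 and 0.352 in the ΔN line. The gamma chain was in excess throughout, at 3.26 to 3.99 times *Lama1*.

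*Lamb3*, the beta chain of laminin-332 of epithelia, had 8.82 and 13.8 CPM in parental ESCs, 6.88 and 8.48 in the WT line and 7.03 and 6.23 in the ΔN line. Its change in the ΔN line was -0.66 (standard error 0.20, adjusted p = 0.0476, limma), and it passed under 3 of 18 alternative settings. Leaving out parental library 2, the higher parental value, gave -0.37 (adjusted p = 0.172, limma). Without either library of the WT line it was also lost, with adjusted p of 0.0772 and 0.0775 from limma, as it was without either ΔN library (0.145 and 0.221). *Lama5* and *Lamb2*, chains of laminin-511 and laminin-521, passed in no comparison. *Lama5* ranged from 99.6 to 141 CPM and *Lamb2* from 29.0 to 43.5 CPM, and for both the parental libraries spanned most of that range.

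Of the other basement membrane genes, 7 of 9 were tested, and those of type IV collagen rose in the ΔN line. *Col4a1* (chr8:11198423-11312826, minus strand) had 31.4 and 41.5 CPM in parental ESCs, 46.2 and 51.0 in the WT line and 71.6 and 65.7 in the ΔN line. *Col4a2* (chr8:11312805-11449287, plus strand) had 11.2 and 16.6, then 19.0 and 19.5, then 27.4 and 26.6 CPM. For both genes the 3 lines did not overlap and stood in the same order.

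The products of *Col4a1* and *Col4a2* assemble together into the common trimer of type IV collagen. The genes lie head to head, with annotated spans that overlap by 22 bases, and share a promoter between them. In the ΔN line *Col4a1* rose by 0.91 (standard error 0.13, adjusted p = 0.00209, limma) and *Col4a2* by 0.93 (standard error 0.16, adjusted p = 0.00467, limma). The call on *Col4a2* was lost without ΔN library 1 (0.91, adjusted p = 0.0516, limma). In the WT line the changes were 0.42 (adjusted p = 0.0484, limma) and 0.46 (adjusted p = 0.0652, limma), both short of the limits. With single libraries left out they ranged from 0.22 to 0.61 and from 0.20 to 0.73, the highest without parental library 2. Per kilobase of exon *Col4a1* was at 2.16 to 2.48 times *Col4a2* in all 6 libraries, so the pair kept its ratio as its level differed. The other chain pair of the family, *Col4a5* and *Col4a6* on the X chromosome, had 7 and 6 reads in all.

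*Col18a1* (chr10:77052178-77166548) encodes the basement membrane collagen from which endostatin is cut. It had 271 and 324 CPM in parental ESCs, 419.6 and 458 in the WT line and 279.7 and 275 in the ΔN line. Both WT values were above all others. The WT line exceeded the ΔN line by 0.66 (standard error 0.10, adjusted p = 0.00218, limma), which became 0.57 and was lost relative to the genes within 10 Mb, and parental ESCs by 0.56 (adjusted p = 0.00514, limma), the latter just under the limit of 0.58. That second difference ranged from 0.435 to 0.69 with single libraries left out, the highest without parental library 2.

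Nidogens, perlecan and agrin, the linkers of laminin and collagen, passed in no comparison. *Nid1* ranged from 184 to 202 CPM and *Nid2* from 372 to 476 CPM over all libraries. *Hspg2*, the perlecan gene, had 234 and 382 CPM in the 2 parental libraries, a spread that covered both values of the ΔN line (317 and 283). Its change in the WT line was 0.34 (adjusted p = 0.204, limma). With single libraries left out that change ranged from -0.01 to 0.69, the highest without parental library 2. *Agrn* had 155 and 196 CPM in parental ESCs, 191 and 221 in the WT line and 163 and 154 in the ΔN line.

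The markers of primitive and parietal endoderm, cells that secrete laminin and type IV collagen in quantity, were low. Of 12 such genes, 7 were under 1 CPM in each library, among them *Gata6*, *Sox17* and *Foxa2*, and their summed level was 11.6 and 8.46 CPM in parental ESCs, 15.8 and 14.3 in the WT line and 11.6 and 11.03 in the ΔN line. *Gata4* was higher in both derived lines, by 0.69 in the WT line (adjusted p = 0.0299, limma) and 0.78 in the ΔN line (adjusted p = 0.0216, limma). It had 1.39 and 0.759 CPM in parental ESCs, so it passed the filter on low values only with libraries of the derived lines. *Sox7* was higher in the WT line by 0.58 (adjusted p = 0.0407, limma). The other tested markers, *Dab2*, *Cubn* and *Plat*, did not pass against parental ESCs. Their changes were 0.15, 0.47 and 0.48 in the WT line and -0.29, -0.06 and -0.28 in the ΔN line. The part of the endoderm markers in the levels of laminins and collagens was not tested.

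The interstitial collagens, which form the fibrils and microfibrils of connective tissue, were low, with *Col5a1* the exception. Of 7 chains, 4 were tested. *Col1a1* and *Col5a2* passed the filter only with the parental libraries, both above 1 CPM, so that a fall was built into their being tested, whereas *Col6a2* was above 1 CPM in both libraries of parental ESCs and of the ΔN line. *Col1a1* had 28 and 49 reads in parental ESCs, 9 and 9 in the WT line and 21 and 15 in the ΔN line. *Col6a2* had 24 and 38, then 8 and 7, then 25 and 21 reads. *Col5a2* had 40 and 34, then 11 and 19, then 4 and 16 reads. The parental libraries were the highest for *Col1a1* and *Col5a2*, and the WT line the lowest for *Col1a1* and *Col6a2*.

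*Col1a1*, the main chain of type I collagen, fell in the WT line by 1.02 (standard error 0.22, adjusted p = 0.0109, limma). *Col6a2*, a chain of the microfibrillar type VI collagen, fell there by 0.91 (standard error 0.20, adjusted p = 0.012, limma). Without WT library 1 and without WT library 2 the adjusted p from limma was 0.0802 and 0.0704 for *Col1a1* and 0.0787 and 0.081 for *Col6a2*. *Col1a1* lies on chromosome 11 (chr11:94936224-94953042), where the tested genes within 10 Mb had a median change of -0.39, and relative to that median its change was -0.63 (adjusted p = 0.0792, limma). *Col6a2* was lower in the WT line than in the ΔN line, at -0.64 (adjusted p = 0.0495, limma), which was lost when any of the 4 libraries compared was left out, with adjusted p from 0.189 to 0.205.

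*Col5a2*, a chain of the type V collagen that nucleates fibrils, fell in the ΔN line by 0.99 (standard error 0.24, adjusted p = 0.0195, limma), a call lost without ΔN library 1 (-0.68, adjusted p = 0.165, limma). In the WT line its change was -0.73 (adjusted p = 0.0532, limma), and from -0.92 to -0.53 with single libraries left out. Its partner chain *Col5a1* was well measured, with 17.0 and 23.4 CPM in parental ESCs, 15.9 and 16.7 in the WT line and 13.6 and 12.7 in the ΔN line. The ΔN change of *Col5a1* was -0.57 (standard error 0.16, adjusted p = 0.0315, limma), at the limit of size. With single libraries left out it ranged from -0.79, without parental library 1, to -0.35. The change of *Col1a1* in the ΔN line was -0.64 (adjusted p = 0.0715, limma), and likewise ranged from -0.93, without parental library 1, to -0.35.

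Fibroblasts are the usual source of these collagens, and their markers were scarce. Of 12 fibroblast markers outside the 43 genes, 9 were under 1 CPM in each library and *Lum*, *Dcn*, *Prrx1*, *Twist2* and *Fap* were at 0. The summed level was 52.5 and 70.0 CPM in parental ESCs, 26.2 and 27.5 in the WT line and 53.4 and 46.3 in the ΔN line. Of the 3 markers tested, *Thy1* fell in the WT line, with a log2 change of -1.08 (adjusted p = 0.00147, limma) and so did *Pdgfrb*, with -1.43 (adjusted p = 0.00198, limma). *Acta2* fell in the ΔN line, with -1.14 (adjusted p = 0.00374, limma) from 1.79 and 1.21 CPM, and it too passed the filter only with the parental libraries. Their part in the collagen values was not tested.

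*Spp1* gave the clearest difference of all members. It encodes osteopontin, a secreted phosphoprotein that binds alpha-v integrins, and in ESCs it is a known target of the pluripotency factor POU5F1 (OCT4). *Spp1* (chr5:104435118-104441050, plus strand) had 163 and 158 CPM in parental ESCs, 179 and 188 in the WT line and 42.8 and 51.2 in the ΔN line. The ΔN values lay far below the other 4. The fall in the ΔN line was 1.76 on the log2 scale (standard error 0.10, adjusted p = 9.63e-06, limma), 3.42-fold, and the WT line stood 3.90-fold above the ΔN line (1.95, adjusted p = 4.56e-06, limma). Both calls held under all 20 alternative settings, with the ΔN change between -1.88 and -1.63 as single libraries were left out. In the WT line the change from parental ESCs was 0.19 (adjusted p = 0.191, limma).

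The sequence before the starts of *Spp1* is shown because it holds an element through which POU5F1 is known to act on this gene. RefSeq gives *Spp1* more than 1 start. The first line is the 250 bases before the first start (chr5:104434861-104435110 in GRCm38.p6, plus strand), with a CCAAT box, in reverse, in capitals. The second is the 250 bases before an inner start (chr5:104435942-104436191), which lie inside the span of 6 annotated *Spp1* transcripts and overlap 1 annotated exon. Reads of a transcript that overlaps *Spp1* cannot be told apart from those of *Spp1* itself. Capitals in the second line mark a palindromic octamer site known as PORE, on which POU factors bind as dimers.
*Spp1*, before the first start: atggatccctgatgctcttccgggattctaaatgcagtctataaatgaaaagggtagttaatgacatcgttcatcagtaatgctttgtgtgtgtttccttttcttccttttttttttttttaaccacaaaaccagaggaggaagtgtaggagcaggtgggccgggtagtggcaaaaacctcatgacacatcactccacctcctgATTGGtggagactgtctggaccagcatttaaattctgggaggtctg
*Spp1*, before the inner start: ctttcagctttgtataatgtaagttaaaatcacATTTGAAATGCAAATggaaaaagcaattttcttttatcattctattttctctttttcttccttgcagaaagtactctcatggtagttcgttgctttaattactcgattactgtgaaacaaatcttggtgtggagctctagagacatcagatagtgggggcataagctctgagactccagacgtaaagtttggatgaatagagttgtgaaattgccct
The whole PORE sequence was present in 2 of the 32851 windows of 250 bases before RefSeq starts of mouse genes, this window and 1 other. Its core octamer, ATGCAAAT read on either strand, was present in 1.6% of all windows and in 4 of the 40 windows that 32 of the 43 members had, which belonged to *Spp1*, *Col3a1* and *Tnc*. POU5F1 itself had 659 and 749.8 CPM of its transcript in parental ESCs, 823 and 855 in the WT line and 775 and 759 in the ΔN line. The change of *Pou5f1* in the ΔN line was 0.13 (adjusted p = 0.368, limma), and its part in the values of *Spp1* was not tested. These are matches of letters, and no binding was measured here.

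*Fn1* (chr1:71585520-71653200, minus strand), which encodes fibronectin, the main ligand of the integrin alpha 5 beta 1, had the highest level per kilobase of exon in parental ESCs. It had 1547 and 2227 CPM in parental ESCs, 1121 and 1150.4 in the WT line and 1280.4 and 1182 in the ΔN line. All 4 values of the derived lines lay below both parental ones, but the parental libraries differed by more than any pair of the derived ones. It fell by 0.71 in the WT line (standard error 0.15, adjusted p = 0.00912, limma) and by 0.59 in the ΔN line (standard error 0.15, adjusted p = 0.0205, limma). Without parental library 2 the changes were -0.45 and -0.33, both under the limit of size. Without WT library 1 or 2 the adjusted p in the WT line was 0.0772 and 0.066, and without ΔN library 1 or 2 that in the ΔN line was 0.0887 and 0.134, from limma. *Fn1* passed under 15 of 20 alternative settings in the WT line and 12 of 20 in the ΔN line.

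*Sparc*, which encodes a collagen-binding glycoprotein abundant in endoderm, had 487 and 359 CPM in parental ESCs, 381 and 349 in the WT line and 491 and 477 in the ΔN line. It passed in no comparison, and both derived lines overlapped with the parental pair. Between those lines the difference was -0.41 for the WT minus the ΔN line (adjusted p = 0.0524, limma). *Thbs1*, the thrombospondin-1 gene, had 36 reads in all.

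**Figure D3:**
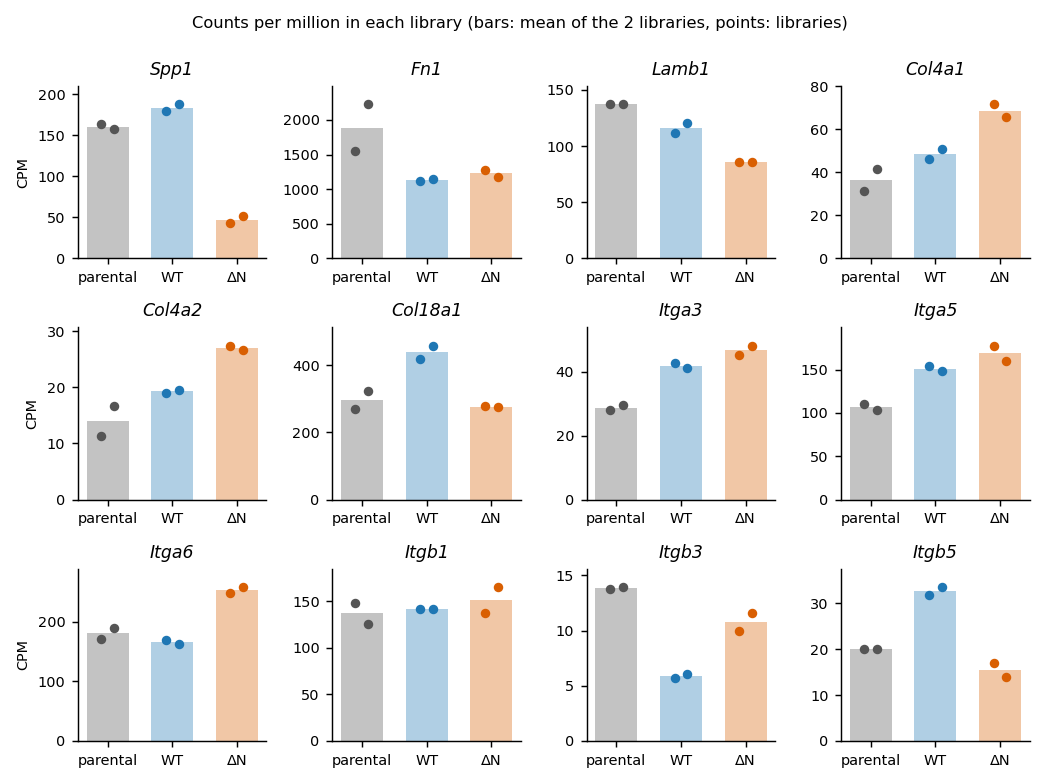
CPM of 12 genes in each library on linear axes from 0, with bars for the mean of the 2 libraries of a line and points for the libraries. *Spp1* is low in the ΔN line alone, *Col4a1*, *Col4a2*, *Itga3* and *Itga5* are highest there, *Itgb3* and *Itgb5* stand in opposite order in the WT line, and *Itgb1* overlaps in all 3 lines.

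Of the integrin alpha chains, which set the ligand of an integrin, 6 of 7 were tested. In the ΔN line 2 rose, beside 2.87% of all genes, and in the WT line 1 fell, beside 8.41% of all genes. Summed over 7 chains the level was 356 and 368 CPM in parental ESCs, 418 and 398 in the WT line and 525 and 523 in the ΔN line. *Itga5* (chr15:103344286-103366763), the fibronectin receptor chain, had 110.0 and 104 CPM in parental ESCs, 154 and 148 in the WT line and 178 and 159.9 in the ΔN line. Both derived lines lay above parental ESCs without overlap. It rose by 0.65 in the ΔN line (standard error 0.09, adjusted p = 0.00142, limma) and differed by 0.50 in the WT line (adjusted p = 0.00537, limma), under the limit of size. Without ΔN library 1 the ΔN change was 0.58 and fell below the limit.

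*Itga3* and *Itga6* encode laminin receptor chains. *Itga3* (chr11:95044474-95076801) had 28.0 and 29.7 CPM in parental ESCs, 42.8 and 41.1 in the WT line and 45.2 and 48.2 in the ΔN line. It rose in the ΔN line by 0.68 (standard error 0.10, adjusted p = 0.00211, limma), a call that held under all 19 alternative settings, and differed in the WT line by 0.53 (adjusted p = 0.00675, limma). Genes around it had fallen: the median change within 10 Mb was -0.33 in the ΔN line and -0.39 in the WT line, and relative to these medians *Itga3* was higher by 1.01 and 0.92. The WT value passed under that centring and under median-ratio and quantile scaling.

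*Itga6* (chr2:71745616-71858416) had 170.5 and 189.6 CPM in parental ESCs, 169 and 162 in the WT line and 248 and 258 in the ΔN line. The ΔN values were above the other 4. The WT minus the ΔN line was -0.61 (standard error 0.09, adjusted p = 0.00158, limma), a call lost without WT library 2 and relative to the genes within 10 Mb, where in both cases the size was just under the limit (-0.58). The difference of the ΔN line from parental ESCs was 0.49 (adjusted p = 0.00482, limma).

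The other alpha chains were lower. *Itga7*, a laminin receptor of muscle, had 5.06 and 5.75 CPM in parental ESCs, 2.94 and 2.42 in the WT line and 3.66 and 3.48 in the ΔN line. It fell in the WT line by 0.80 (standard error 0.16, adjusted p = 0.00869, limma), and without WT library 2 the value was -0.70 (adjusted p = 0.0875, limma). *Itga9*, which binds tenascin-C and osteopontin among others, had 24.4 and 20.8 CPM in parental ESCs, 29.2 and 26.5 in the WT line and 33.3 and 32.9 in the ΔN line. The ΔN difference of 0.54 (adjusted p = 0.013, limma) was under the limit. With single libraries left out it ranged from 0.43 to 0.64, the highest without parental library 1. *Itgav*, the alpha-v chain that pairs with the beta 3 and beta 5 chains, ranged from 17.5 to 20.8 CPM and the lines overlapped. *Itga1*, a collagen receptor chain, had 41 reads in all.

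The beta chains held a contrast within a pair. *Itgb3* and *Itgb5* both pair with alpha-v to bind vitronectin, the adhesive protein of serum. *Itgb5* (chr16:33829665-33949338) had 20.0 and 20.0 CPM in parental ESCs, 31.8 and 33.5 in the WT line and 16.9 and 13.9 in the ΔN line. *Itgb3* (chr11:104608000-104670476) had 13.8 and 13.9, then 5.72 and 6.06, then 9.94 and 11.6 CPM. For both genes the WT values stood apart from the other 4 libraries, high for *Itgb5* and low for *Itgb3*.

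*Itgb5* rose in the WT line by 0.68 (standard error 0.13, adjusted p = 0.00629, limma) and was above the ΔN line by 1.04 (adjusted p = 0.000708, limma), while the ΔN line differed from parental ESCs by -0.37 (adjusted p = 0.0726, limma). The first call was lost without WT library 1 (0.71, adjusted p = 0.0575, limma) and without WT library 2 (0.64, adjusted p = 0.0722, limma), and the second held under all 19 alternative settings. *Itgb3* fell in the WT line by 1.11 (standard error 0.14, adjusted p = 0.00137, limma), a call that held under all 19 alternative settings, and its change was -0.74 relative to the median of -0.37 of the genes within 10 Mb. The WT minus the ΔN line was -0.77 (adjusted p = 0.00526, limma), a call lost without WT library 1 (adjusted p = 0.0623) and without ΔN library 2 (adjusted p = 0.0695). The ratio of *Itgb5* to *Itgb3* per kilobase of exon, a pair chosen after its values were seen, was 2.42 and 2.39 in parental ESCs, 9.23 and 9.18 in the WT line and 2.83 and 1.98 in the ΔN line.

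The 250 bases before the start of *Itgb5* (chr16:33829415-33829664 in GRCm38.p6, plus strand, outside any annotated exon) are shown as the promoter of the beta chain that rose. Capitals mark GC boxes, GGGCGG or its reverse CCGCCC, the sites of SP family factors.
*Itgb5*, before the start: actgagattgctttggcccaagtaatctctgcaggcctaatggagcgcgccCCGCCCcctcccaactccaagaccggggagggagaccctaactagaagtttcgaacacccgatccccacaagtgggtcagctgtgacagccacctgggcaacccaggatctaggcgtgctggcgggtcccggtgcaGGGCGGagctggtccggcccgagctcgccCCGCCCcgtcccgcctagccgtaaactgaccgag
A GC box was present in 25 of the 40 windows of members, beside 32.7% of all 32851 windows. A CCAAT box (CCAAT or ATTGG) was present in 13 of the 40 and in 33.8% of all. No factor was measured at these sites.

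*Itgb1* (chr8:128685654-128733200), the beta chain shared by the laminin, collagen and fibronectin receptors named above, had the highest level of the integrin genes per kilobase of exon in parental ESCs. It had 148 and 126 CPM in parental ESCs, 142 and 141 in the WT line and 137 and 165 in the ΔN line. The 3 lines overlapped, with changes of 0.05 and 0.14 from parental ESCs (standard error 0.11 each). Per kilobase of exon, *Itga6* stood at 0.519 and 0.682 of *Itgb1* in parental ESCs, at 0.54 and 0.517 in the WT line and at 0.817 and 0.705 in the ΔN line. *Itgb4*, the partner of the alpha 6 chain in hemidesmosomes, ranged from 4.13 to 7.48 CPM and passed in no comparison. Its ΔN change ranged from 0.0004 to 0.64 with single libraries left out, the highest without parental library 2.

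The receptors that are not integrins did not pass in any comparison. *Dag1*, dystroglycan, which holds laminin at the cell surface, had 302 and 319 CPM in parental ESCs, 292 and 266 in the WT line and 289 and 271 in the ΔN line. The syndecan *Sdc4*, a co-receptor for fibronectin, ranged from 99.7 to 115 CPM. Its relative *Sdc1* had 39.6 and 37.4 CPM in parental ESCs, 49.7 and 49.2 in the WT line and 37.2 and 37.7 in the ΔN line, with the WT line above the others by 0.35 from parental ESCs (adjusted p = 0.0272, limma) and by 0.39 from the ΔN line (adjusted p = 0.0208, limma), both under the limit of size.

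Chromosome 11 as a whole was low in both derived lines. Its 1102 tested genes had a median log2 change of -0.36 in the WT line and -0.33 in the ΔN line, beside -0.08 and -0.06 for all genes. The members there were *Col1a1*, *Itga3*, *Itgb3*, *Itgb4* and *Sparc*, and the part of this shift in their changes was not tested. Within 10 Mb of the other tested members, the medians lay between -0.19 and 0.17 in the WT line and between -0.14 and 0.11 in the ΔN line.

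**Figure D4:**
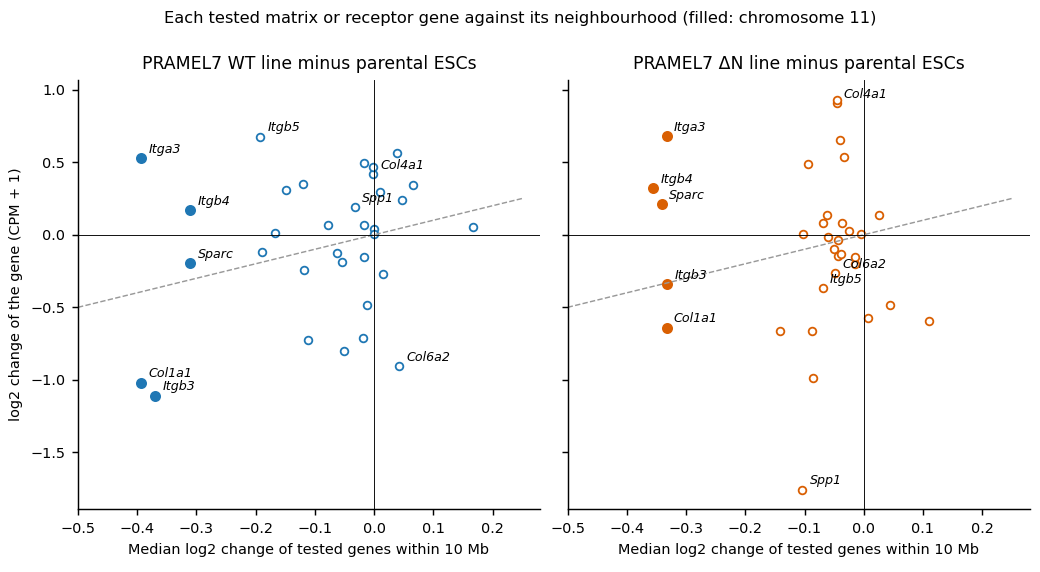
The log2 change of each tested gene (vertical) against the median change of all tested genes within 10 Mb of it (horizontal), for both derived lines minus parental ESCs, with equality as a dashed line and the 5 genes on chromosome 11 filled. These 5 stand apart at medians of -0.31 to -0.39 in the WT line and -0.33 to -0.36 in the ΔN line. Among them *Itga3*, *Itgb4* and *Sparc* lie above the dashed line in both panels and *Col1a1* below it in both. *Itgb3* lies below it in the WT line and close to it in the ΔN line.

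Beyond the 43 members, 135 further genes of matrix biology in 7 lists were read from the same fit. Beside their counts stand the shares over all genes tested, which were 4.07% higher and 8.41% lower in the WT line and 2.87% higher and 8.41% lower in the ΔN line. Among other laminin and collagen chains, 9 of 24 were tested. In the ΔN line 6 fell (*Lama3*, *Col2a1*, *Col9a2*, *Col5a3*, *Col9a3* and *Col17a1*), with a list median of -0.78, and in the WT line *Lama3* and *Col11a1* fell. *Col17a1* passed the filter only with the parental libraries. *Lama3*, the alpha chain that joins the product of *Lamb3* in laminin-332, had 6.96 and 10.1 CPM in parental ESCs, 2.43 and 2.09 in the WT line and 1.05 and 1.48 in the ΔN line. The groups did not overlap, and the log2 change in the ΔN line was -2.06 (adjusted p = 0.000261, limma).

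Of 25 other matrix proteins, 14 were tested. None rose, and 3 fell in the WT line (*Smoc1*, *Ntn1* and *Frem2*) and 6 in the ΔN line (the same 3 with *Fbln1*, *Fbln2* and *Fbn2*), beside 8.41% lower of all genes in each line. *Fbln2* passed the filter only with the parental libraries. *Ntn1* lies on chromosome 11, which had a median change of -0.36 in the WT line and -0.33 in the ΔN line. The changes of *Ntn1* were -0.90 and -0.61, and the part of that shift in them was not tested. *Smoc1*, a calcium-binding basement membrane protein, had 39.2 and 42.5 CPM in parental ESCs, 22.8 and 23.0 in the WT line and 4.27 and 4.38 in the ΔN line. The ΔN change was -2.97 (adjusted p = 1.94e-06, limma), larger than that of *Spp1*. Of 13 other integrin chains, 6 were tested, and *Itgal*, the leukocyte integrin chain, fell by 1.94 in the ΔN line (adjusted p = 0.000119, limma) and *Itga2b*, also on chromosome 11, by 0.86 in the WT line (adjusted p = 0.0154, limma), where it had been tested only because both parental libraries were above 1 CPM.

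Of 11 other matrix receptors, 10 were tested, of which 2 rose and 1 fell in the WT line and 1 rose and 3 fell in the ΔN line. *Ddr2*, a receptor kinase for fibrillar collagen, had 72.4 and 68.5 CPM in parental ESCs, 61.3 and 57.2 in the WT line and 11.5 and 10.4 in the ΔN line, a ΔN change of -2.58 (adjusted p = 1.94e-06, limma). *Gpc3* and *Cd47* fell there too, by 1.20 and 0.66. *Bcam*, a laminin alpha 5 receptor, rose in both lines, by 0.84 in the WT line and 0.70 in the ΔN line, and *Gpc1*, a glypican, rose in the WT line by 1.06 (adjusted p = 0.000792, limma).

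Among 19 enzymes that process and crosslink matrix, 15 were tested. In the WT line 4 rose (*Loxl1*, *Pcolce*, *Crtap* and *Plod3*) and 2 fell (*Loxl2* and *P4ha2*), beside 4.07% and 8.41% of all genes, and in the ΔN line *Tgm2*, a transglutaminase, rose by 1.17 (adjusted p = 0.000814, limma). *P4ha2* also lies on chromosome 11, which was low as a whole in both derived lines. The lysyl oxidase relatives *Loxl1* and *Loxl2* stood in opposite order in the WT line. *Loxl1* had 1.96 and 2.98 CPM in parental ESCs and 8.81 and 7.43 in the WT line, and *Loxl2* had 7.07 and 11.6, then 3.95 and 3.96 CPM. Of 23 proteases and inhibitors, 16 were tested. *Mmp14*, a membrane-bound collagenase, had 17.5 and 14.2 CPM in parental ESCs, 20.9 and 21.6 in the WT line and 43.5 and 43.0 in the ΔN line, where it rose by 1.401 (adjusted p = 0.000158, limma). *Mmp2* and *Adam10* fell in the ΔN line, and *Mmp2* fell in the WT line.

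Of the 20 genes of the adhesion complex on the inner side of integrins, 19 were tested. None passed in the WT line, and *Fermt2*, *Lims2* and *Parva* rose in the ΔN line, beside 2.87% of all genes. *Fermt2* encodes kindlin-2, which activates integrins by binding beta chain tails. It had 172 and 150.0 CPM in parental ESCs, 137 and 128 in the WT line and 259 and 274 in the ΔN line. The ΔN change was 0.73 (adjusted p = 0.00101, limma), and the WT line was below the ΔN line, with -1.005 for the WT minus the ΔN line (adjusted p = 0.000166, limma). Between the derived lines, *Lims2*, *Tns1* and *Tns3* were also lower in the WT line.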

How the data were processed

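RNA had been isolated from 2 dishes of each of the 3 lines, enriched for poly(A) RNA, made into libraries without strand marking and sequenced as single-end reads. According to the methods, the authors filtered (SortMeRNA) and trimmed (Trimmomatic) the reads, aligned them by STAR to mm10 (GRCm38) and counted exon reads in a custom way; the submitters' processing notes list Bowtie2 2.3.4.3 and Subread 1.4.6-p4. The deposited table holds RPKM values per gene and library, computed by the authors. Tables of the authors' own contrasts between lines (fold changes, scores and p-values), also deposited, were not used, and ChIP libraries were not analysed here.

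Of 50978 genes, 176 with duplicated or date-like symbols, 2796 that GENCODE release 21 did not contain and 66 that it contained more than once were left out, and 47940 were kept. RPKM was multiplied by the gene span, the length on which the values rest, and by a constant common to all libraries, which gives CPM with the authors' scaling kept. Of the values up to 20 reads, 98.08 to 98.41% per library lay within 0.1 of a whole number of reads, and 3 reads were taken as the limit that a count of 0 allows, for counting error only.

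The filter of more than 1 CPM in at least 2 libraries left 12914 genes. They were fitted on log2(CPM + 1) by limma 3.58.1 (R 4.3.3) with its trend option, all 6 libraries in a single fit and Benjamini-Hochberg adjustment over all genes tested. The added 1 understates the change of low genes. Calls needed an adjusted p under 0.05 and an absolute log2 change above 0.58. On simulated data of the WT line against parental ESCs with 200 changed genes among 12914, 97% were recovered, 1 unchanged gene was called and the slope of estimated on true changes was 0.912. The changed genes were drawn from well-counted genes, with changes well above the limit of size and the same spread in each line. The real parental libraries differed more than those of the derived lines. These figures therefore check the procedure and do not give its performance on these data. Tables and figures were made with python 3.11.15, numpy 2.4.6, pandas 2.3.3 and matplotlib 3.10.9.

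The 43 members, the further lists and the markers were chosen with earlier results of these data known, and some genes of the further lists are not reported here. By rule all members were accounted for, those that passed were named with their values, and library values were given for the 10 highest per kilobase of exon, for partner chains and for up to 8 members per comparison with the largest changes; *Itgb5* over *Itgb3* and genes outside the members were named after their values were seen. Alternatives were other added values, filters, scalings, fits and limits, centring on the chromosome or on genes within 10 Mb, a replicate block, and leaving out each library. Deviations from the line means were correlated between lines over 8560 genes, by replicate number. The correlations were 0.32 for the WT line with parental ESCs, -0.36 for the ΔN line with parental ESCs and -0.12 between the derived lines. Part of the deviation was thus shared with the parental libraries, in opposite order for the ΔN line. Its source was not tested, and the main fit used no block. Sequences are from the RefSeq promoter table for GRCm38.p6, 250 bases before a start, in which 32 of 43 members had 40 windows.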

Additional observations from a re-analysis of the deposited data

How the results depend on the processing

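The 21 calls on single members gave 398 values under alternatives, of which 335 kept the call, 63 lost it and 0 reversed. The 6 calls that held under each alternative that gave a value were *Col4a1*, *Itga3* and *Spp1* in the ΔN line, *Itgb3* in the WT line, and *Itgb5* and *Spp1* between the derived lines. Of the counts of members, 97 were within 1.5 times that reported and 35 were not. Members higher in the WT line than in parental ESCs numbered 1, and became 4 with median-ratio scaling, 2 with quantile normalization, 3 and 2 after subtraction of the chromosome or 10 Mb median, 7 with no limit on the fold change and 0 with RPKM not converted. Members lower there numbered 5 (also 5 with median-ratio and with quantile scaling, 4 with either centring), and became 2 with 5 added, 3 with no filter, 2 with a filter of 10 CPM and 0 with RPKM. Higher in the ΔN line were 4, and 0 with RPKM. Lower there were 5, then 3 with 5 added, 2 with no filter, 3 with a filter of 10 CPM, 3 with median-ratio, 3 with quantile, 3 without trend, 1 with RPKM and 3 with either centring, beside 5, 5, 4 and 5 higher for median-ratio, quantile, chromosome and 10 Mb settings. Higher in the WT than the ΔN line were 3, then 1 with RPKM and 6 with no limit on the fold change. Lower were 3, then 1 with 5 added and 0 with RPKM. RPKM kept 6 members above its filter, and no filter tested all 43. The cause of the other shifts was not tested. With each library left out in turn, where the remaining library of a line was assumed to vary like the others, the counts ranged from 0 to 5 higher and 1 to 6 lower in the WT line, 2 to 5 higher and 2 to 7 lower in the ΔN line, and 3 to 3 higher and 1 to 3 lower in the WT than in the ΔN line. The replicate block, which groups libraries by their number, gave 1 higher and 5 lower members in the WT line, 4 and 4 in the ΔN line and 3 and 2 between them. It lost the call on *Lamb3* in the ΔN line and that on *Col6a2* between the derived lines. A crossed block, in which the numbers of the ΔN libraries were exchanged, was added after seeing the data. It gave 1 and 6, 4 and 6, and 3 and 3.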
